A study of Mus musculus with 4 samples.

Results

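The mast cell genes described here are the granule proteases Cpa3, Cma1, Mcpt4, Tpsb2 and Tpsab1, the receptor genes Kit, Ms4a2 and Fcer1a, and the amine genes Hdc and Slc18a2. They are 10 of the 54115 genes with summed values in these libraries. They were chosen for their known place in mast cells and also selected on the reads measured here, the contrast of vanoxerine with saline, so their values are a description and carry no test. MC38 is a mouse colon adenocarcinoma cell line, injected into mice here and grown as a tumour. The 2 saline libraries came from tumours of mice given 10 consecutive daily intraperitoneal injections of saline, and the 2 vanoxerine libraries from mice given vanoxerine at 25 mg/kg on the same schedule. Vanoxerine blocks the dopamine transporter. The labels give no strain, sex or age of the mice and do not tie each library to its own animal. Every SD and p-value therefore rests on the variation among these libraries, part or all of which may be technical.

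Mast cells are long-lived tissue cells that arise from the bone marrow and mature where they settle, under the growth factor stem cell factor and its receptor Kit. Their granules hold proteases packed on the proteoglycan serglycin, together with histamine and, in rodents, serotonin. The high-affinity receptor for IgE, built from an alpha, a beta and a paired gamma chain, triggers release of the granules. Proteases differ between mast cells of connective tissue, which carry Cma1, Mcpt4, the tryptases and Cpa3, and those of mucosa, which carry Mcpt1 and Mcpt2.

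RNA was taken from whole snap-frozen tumours, and the libraries held 67289273 to 75748162 estimated reads. Across all genes, 6916 of 18758 tested genes were called by edgeR's quasi-likelihood test (adjusted p under 0.05), which is 36.9% (3933 higher and 2983 lower in vanoxerine). That split turned with the scaling: upper-quartile factors gave 2895 higher and 4525 lower and moved the median log2 fold change of all genes to -0.14, while log2(TPM + 1) gave 4094 higher and 870 lower with a median of 0.13. Of 8 epithelial genes that would mark colon carcinoma cells, 6 were tested, of which Epcam and Cdh1 rose, 0 fell and 4 were not called. Cdx2, an intestinal transcription factor gene, had no read in any library. Epcam, a surface protein gene of epithelia, stood at 2.02 ± 0.378 CPM (mean ± SD, n = 2) in saline and 4.11 ± 0.149 CPM in vanoxerine, a call lost without vanoxerine replicate 1 or 2 (adjusted p = 0.125 and 0.101). CPM is the reads of a gene scaled to library size and composition. TPM also divides by transcript length and serves here to compare levels of different genes and to sum lists. Between the groups it is not on the scale of CPM. The mean effective transcript length of reads was 778 and 754 bases in saline, and 945 and 938 bases in vanoxerine. For a transcript of fixed length, the same CPM therefore gives a higher TPM in vanoxerine.

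In vanoxerine tumours 9 of the 10 genes were higher than in saline tumours, and Hdc was not. The lowest vanoxerine library exceeded the highest saline library for those 9 genes, a separation seen in 35.8% of all tested genes, and 0 of the 10 showed the opposite one, which 34.9% of tested genes did. At least 2-fold higher mean CPM was found for the same 9, against 8.99% of tested genes. All 10 passed the low-count filter, Ms4a2 and Slc18a2 only through the vanoxerine libraries. The choice of the genes used this contrast, so nothing is read from either count. The median log2 fold change of the 10 was 3.04, beside -0.0096 for all tested genes. In a bulk tumour, more mast cells and more of these transcripts per mast cell cannot be told apart.

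**Figure D1:**
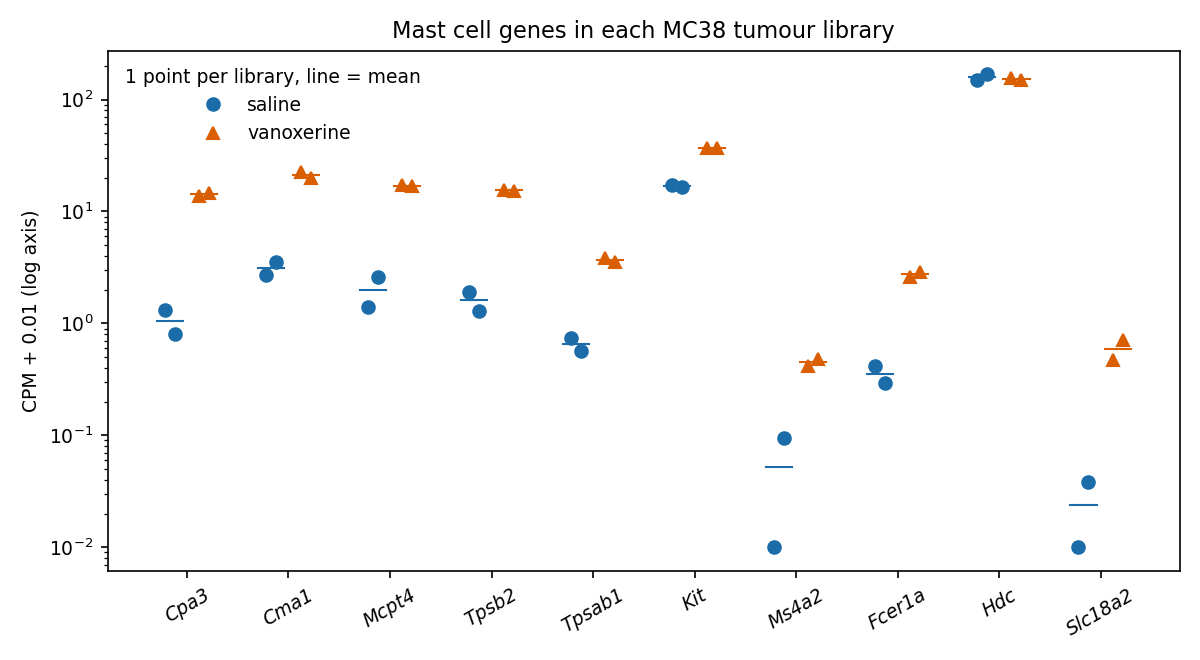
Level of each of the 10 genes in CPM, with 0.01 added, on a log axis. Each point is 1 library (circles saline, triangles vanoxerine) and each line is a group's mean, so a gene with no read sits at 0.01, as Ms4a2 and Slc18a2 do in saline replicate 1. Vanoxerine points lie above saline points for every gene except Hdc.

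The protease with the largest fold was Cpa3, the gene of carboxypeptidase A3, a metalloprotease stored in the granule (chr3:20215620-20242181, minus strand, GRCm38). Cpa3 measured 1.296 and 0.800 CPM in the saline libraries and 13.6 and 14.8 CPM in the vanoxerine libraries, from 99, 57, 944 and 973 reads. The group means were 1.05 ± 0.350 and 14.2 ± 0.802 CPM (SD, n = 2 each), a 13.6-fold difference. Both vanoxerine libraries lay far above both saline libraries, and all reads went to a single transcript model.

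Cma1 encodes the chymase also called mast cell protease 5 (chr14:55941451-55944675, minus strand). Cma1 measured 2.68 and 3.55 CPM in saline and 22.5 and 19.9 CPM in vanoxerine, with means of 3.12 ± 0.614 and 21.2 ± 1.88 CPM, or 6.81-fold. Mcpt4, a second chymase gene of connective tissue mast cells, lies on the same chromosome (chr14:56059629-56062313, minus strand). Mcpt4 measured 1.40 and 2.60 CPM in saline and 17.1 and 16.8 CPM in vanoxerine, with means of 2.00 ± 0.846 and 16.98 ± 0.241 CPM, or 8.49-fold. The saline libraries differed from each other more than the vanoxerine libraries did for Mcpt4, and neither chymase overlapped between groups. The coding sequences of Cma1 and Mcpt4 were 71.8% identical over 696 aligned bases, with a longest shared run of 27 bases. How reads shared between the chymases, or with other genes of their family, were divided was not tested.

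The tryptase genes Tpsb2 and Tpsab1, which encode the granule's trypsin-like proteases, sit on chromosome 17 (Tpsb2 at chr17:25366305-25369098, plus strand, and Tpsab1 at chr17:25343245-25345562, minus strand). Tpsb2 measured 1.91 and 1.28 CPM in saline and 15.5 and 15.3 CPM in vanoxerine, with means of 1.59 ± 0.448 and 15.4 ± 0.0768 CPM, or 9.66-fold. Tpsab1 measured 0.733 and 0.561 CPM in saline and 3.80 and 3.55 CPM in vanoxerine, with means of 0.647 ± 0.121 and 3.68 ± 0.174 CPM, or 5.68-fold. The vanoxerine libraries agreed closely for both, and the groups did not overlap. Over 803 aligned coding bases Tpsb2 and Tpsab1 were 77.5% identical, and their longest shared run was 39 bases. Salmon divides reads that fit more than 1 transcript by estimate, so a small exchange of reads between the tryptases is possible.

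The 5 proteases together made up 6.87 and 7.47 TPM in saline and 73.1 and 69.7 TPM in vanoxerine. Within that sum the order in vanoxerine was Cma1 (33.8% and 31.0%), Mcpt4 (25.3% and 25.8%), Tpsb2 (21.8% and 22.6%), Cpa3 (15.2% and 17.2%) and Tpsab1 (3.83% and 3.33%). In saline, Cma1 was also first, at 37.2% and 43.8%. The other shares were less steady there: Mcpt4 took 18.7% and 31.0%, Tpsb2 25.0% and 14.6%, Cpa3 12.8% and 7.31%, and Tpsab1 6.24% and 3.33%. The mix of proteases was thus more alike between the vanoxerine libraries than between the saline libraries, where it rested on 40 to 253 reads per gene and library.

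Kit, the receptor tyrosine kinase for stem cell factor (chr5:75574916-75656722, plus strand), had the smallest fold of the 9. Kit measured 17.2 and 16.5 CPM in saline and 36.6 and 36.7 CPM in vanoxerine, with means of 16.9 ± 0.516 and 36.6 ± 0.103 CPM, or 2.17-fold. Relative to Cpa3 on the TPM scale, Kit stood at 4.09 and 5.34 in saline and at 0.917 and 0.880 in vanoxerine.

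Reads of Kit also moved between transcript models. The coding model of 5214 bases took 919 and 993 reads in saline and 190 and 142 in vanoxerine. A coding model of 5241 bases took no read in saline and 1441 and 1576 reads in vanoxerine. A retained-intron model of 3175 bases took 29.2% and 15.6% of Kit reads in saline and 32.1% and 24.2% in vanoxerine. The first carries 12 coding bases at the end of exon 9 (chr5:75639147-75639158) that the second lacks, and the second starts 39 bases earlier. Both forms of the extracellular part next to the membrane are known products of alternative splicing. The stretches across that junction, 30 bases on each side, are shown because they are the only coding difference between these models, with the 12 extra bases in capitals.
Kit with the block: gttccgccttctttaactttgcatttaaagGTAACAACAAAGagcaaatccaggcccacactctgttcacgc
Kit without the block: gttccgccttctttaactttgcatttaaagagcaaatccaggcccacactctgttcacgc
The share given to a transcript is Salmon's estimate, and reads crossing this short block cannot be counted in these files.

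A sharper exchange was listed for Cma1. Salmon gave all 205 and 253 saline reads to a model of 1074 bases and all 1561 and 1310 vanoxerine reads to a model of 1090 bases. The longer model differs only by 14 more bases at the 5′ end and 2 more at the 3′ end. Of 10411 genes with several transcripts and at least 200 reads in every library, 7 had a transcript whose share differed by at least 80 percentage points between the groups. That is 0.0672% of them. Between single libraries such a gap was found in 49 to 72 genes for pairs across the groups, in 84 genes for the saline replicates and in 37 genes for the vanoxerine replicates, so shares also jumped within a group. Fcer1a, which had fewer reads than that minimum, also did so, with all 31 reads of saline replicate 1 on the model of 998 bases and all 20 of saline replicate 2 on the model of 826 bases. All 180 and 191 vanoxerine reads of Fcer1a went to the longer one. For Tpsab1, the share of the model of 1928 bases was 67.0% and 100% in saline against 55.3% and 72.8% in vanoxerine, which overlap.

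**Figure D2:**
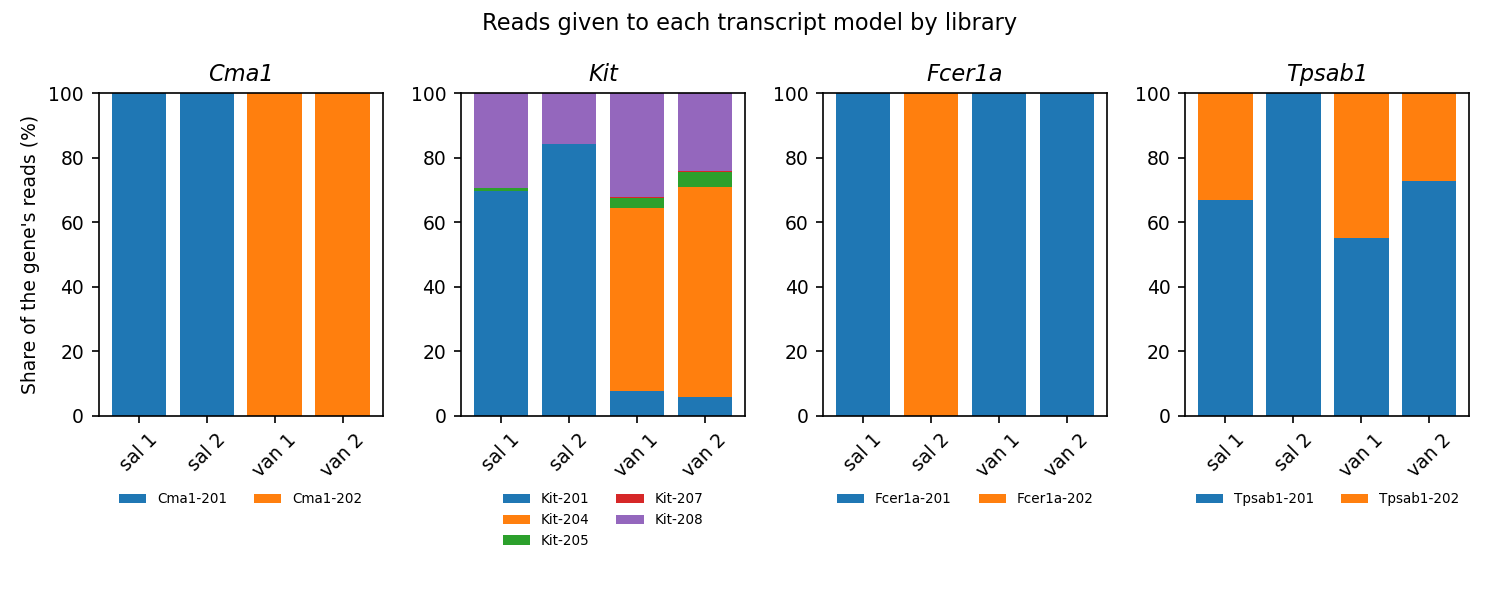
Share of a gene's reads (percent) that Salmon gave to each annotated transcript, with 1 bar per library (sal is saline, van is vanoxerine) for Cma1, Kit, Fcer1a and Tpsab1. Cma1 and Kit change their leading transcript between the groups, Fcer1a changes within saline, and the Tpsab1 shares overlap.

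The IgE receptor has its alpha chain from Fcer1a and its beta chain from Ms4a2. Fcer1a (chr1:173221284-173227214, minus strand) measured 0.406 and 0.281 CPM in saline and 2.60 and 2.90 CPM in vanoxerine, with means of 0.343 ± 0.0884 and 2.75 ± 0.212 CPM, or 8.01-fold. Its groups were well apart, although saline rested on 31 and 20 reads. Ms4a2 (chr19:11615523-11623719, minus strand) is a member of the MS4A gene family. It had 0 and 6 reads in saline and 28 and 31 in vanoxerine, or 0 and 0.0842 CPM against 0.404 and 0.471 CPM. Pooled over libraries the ratio was 10.7, with a 95% interval of 4.65 to 30.5 that covers counting error only. The authors' deposited table lists a log2 fold change of 0.26 with a standard error of 0.55 for Ms4a2, below the 3.34 ± 1.301 (SE) computed here. That value was 2.35 without saline replicate 1 and 0.40 as log2(TPM + 1), and without saline replicate 2 no saline read remained. For Cpa3 that table gives 3.74 ± 0.31 (SE), next to 3.75 here.

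Hdc encodes histidine decarboxylase, the enzyme that makes histamine (chr2:126593667-126619299, minus strand). It was the most abundant of the 10 on the TPM scale and the only one whose groups overlapped. Hdc measured 149.2 and 168 CPM in saline and 154 and 149.3 CPM in vanoxerine, with means of 159 ± 13.2 and 152 ± 3.60 CPM, or 0.957-fold. The authors' deposited table lists a log2 fold change of 2.57e-05 with a standard error of 0.091 for Hdc. On the TPM scale the same reads gave 83.2 and 90.2 in saline and 101 and 102 in vanoxerine, with no overlap. The direction of Hdc therefore depends on the scale: the log2 difference was -0.063 in CPM and 0.23 as log2(TPM + 1). Its coding model stood at 49.2 and 52.8 TPM in saline and 56.9 and 54.5 TPM in vanoxerine. A model of 354 bases, not annotated as coding, took 2.3% to 2.9% of Hdc reads. That short model stood at 27.8 and 28.7 TPM in saline and 31.6 and 37.5 TPM in vanoxerine. TPM is set by the sum of reads per base over all transcripts, and the mean effective transcript length of a library's reads (harmonic mean) came to 778 and 754 bases for saline, against 945 and 938 bases for vanoxerine.

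In saline tumours Hdc was 88.4% and 89.3% of the summed TPM of the 10 genes, and in vanoxerine 53.8% and 54.7%. Without Hdc, the other 9 summed to 10.9 and 10.8 TPM in saline and 87.1 and 84.5 TPM in vanoxerine. Per unit of Cpa3 TPM, Hdc stood at 94.5 and 165 in saline and at 9.11 and 8.52 in vanoxerine. Hdc is also made outside mast cells, by basophils and by neutrophils and their precursors. Of 10 neutrophil marker genes, 6 fell, 4 were not called and 0 rose, and their summed level was 1404 and 1375 TPM in vanoxerine against 2338 and 2372 TPM in saline. Without vanoxerine replicate 1 or 2, 4 and 3 of these genes were called lower. The part of neutrophils in the level of Hdc was not tested.

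Slc18a2 encodes the vesicular monoamine transporter that loads histamine, serotonin and dopamine into granules and vesicles (chr19:59260896-59296012, plus strand). It had 0 and 2 reads in saline and 32 and 46 in vanoxerine, or 0 and 0.0281 CPM against 0.462 and 0.698 CPM. The means were 0.0140 ± 0.0199 and 0.580 ± 0.167 CPM. The pooled ratio was 42.6, with a 95% counting interval of 11.4 to 358, so its size is poorly fixed by so few reads. The log2 fold change of 5.23 became 4.28 without saline replicate 1 and 0.22 as log2(TPM + 1), and without saline replicate 2 no saline read remained. At 0.138 and 0.204 TPM in vanoxerine it remained the lowest of the 10 genes. The other vesicular transporter gene, Slc18a1, had 19, 15, 40 and 53 reads and was not called (adjusted p = 0.0756).

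Ranked by TPM in saline, the order was Hdc (86.7 ± 4.96), Kit (3.26 ± 0.483), Cma1 (2.92 ± 0.507), Mcpt4 (1.80 ± 0.726), Tpsb2 (1.40 ± 0.445), Cpa3 (0.713 ± 0.236), Fcer1a (0.414 ± 0.0341), Tpsab1 (0.339 ± 0.127), Ms4a2 (0.0181 ± 0.0256) and Slc18a2 (0.0028 ± 0.0040). Neighbours whose saline libraries overlapped were Kit and Cma1, Mcpt4 and Tpsb2, Fcer1a and Tpsab1, and Ms4a2 and Slc18a2. In vanoxerine the order was Hdc (101.9 ± 0.560), Cma1 (23.2 ± 2.17), Mcpt4 (18.2 ± 0.352), Tpsb2 (15.8 ± 0.159), Cpa3 (11.6 ± 0.607), Kit (10.4 ± 0.241), Fcer1a (3.54 ± 0.256), Tpsab1 (2.56 ± 0.339), Ms4a2 (0.341 ± 0.0739) and Slc18a2 (0.171 ± 0.0465). No neighbours overlapped there. Kit went from the second place to the sixth, behind 4 of the proteases.

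Promoters of the genes were searched for the motif of GATA factors, since Gata2 is required for mast cell genes. The window ran from 250 bases before to 50 bases after the RefSeq start (GRCm38.p6), and 8 of the 10 genes had an entry. AGATAA or TGATAA, on either strand, was found in 5 of these 8 (Cpa3, Mcpt4, Ms4a2, Fcer1a and Slc18a2) and in 18.6% of 32851 windows. The windows of Hdc, Kit and Cma1 held no match. CACGTG or CATGTG, the letters bound by Mitf, was found in 1 of the 8 (Fcer1a) and in 20.4% of all windows. A match is a description of the letters and not evidence of binding. The promoters shown are those of the protease with the largest fold, the gene with the most matches and the amine transporter, each as the 250 bases before the start on the gene's strand. Matches are in capitals, and TTATCT is AGATAA on the opposite strand.
Cpa3 chr3:20242182-20242431: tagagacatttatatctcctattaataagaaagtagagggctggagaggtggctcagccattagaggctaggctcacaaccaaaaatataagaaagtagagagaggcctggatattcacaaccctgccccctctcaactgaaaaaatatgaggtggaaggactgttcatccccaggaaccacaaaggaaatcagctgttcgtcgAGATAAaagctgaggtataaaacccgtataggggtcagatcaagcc
Ms4a2 chr19:11623720-11623969: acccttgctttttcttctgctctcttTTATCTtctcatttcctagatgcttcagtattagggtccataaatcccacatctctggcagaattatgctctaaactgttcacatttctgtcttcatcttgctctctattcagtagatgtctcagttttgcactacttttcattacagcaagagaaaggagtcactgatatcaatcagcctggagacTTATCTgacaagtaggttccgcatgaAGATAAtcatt
Slc18a2 chr19:59260628-59260877: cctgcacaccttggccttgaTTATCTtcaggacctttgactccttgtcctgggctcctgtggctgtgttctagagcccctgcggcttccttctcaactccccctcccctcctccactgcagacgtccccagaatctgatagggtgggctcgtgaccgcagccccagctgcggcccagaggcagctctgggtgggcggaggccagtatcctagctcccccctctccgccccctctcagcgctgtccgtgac
The match of Cpa3 lies 46 bases before its start. Ms4a2 has matches at 224, 37 and 11 bases before its start, and Slc18a2 has 1 at 230 bases before.

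Other mast cell protease genes, not among the 10, were read from a list that was also drawn up with earlier results of these data known. Of 7 listed genes, 6 were in the annotation and 3 passed the low-count filter, and these 3 rose, Mcpt1 having passed the filter only through the vanoxerine libraries, where it is high. In edgeR's test 21% of all genes rose and 15.9% fell. Mcpt1, a mucosal chymase gene, rose from 7 and 8 reads to 45 and 62 (log2 fold change 2.94 ± 0.62 SE, adjusted p = 0.0137). Mcpt2, its mucosal neighbour, rose from 39 and 45 reads to 116 and 130 (1.67 ± 0.35, adjusted p = 0.0130). Ctsg, the cathepsin G gene that neutrophil precursors also use, rose from 9.12 ± 0.834 to 14.7 ± 0.310 CPM (adjusted p = 0.0053). Mcpt9 had no read in any library. The division of reads shared among Mcpt1, Mcpt2 and Mcpt4 was not tested. Without vanoxerine replicate 1 or 2, Mcpt1 was no longer called (adjusted p = 0.0896 and 0.245), nor was Mcpt2 (0.0743 and 0.130).

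A second list held 15 further mast cell markers, of which 14 were tested, 7 rose, 1 fell and 6 were not called, with a median log2 fold change of 0.59. The 6 not called were Ltc4s, Rab27b, Adora3, Tph1, Slc45a3 and Slc29a1. Hpgds, the haematopoietic prostaglandin D synthase gene that macrophages also express, rose 7.71-fold, from 4.27 ± 0.594 to 32.9 ± 0.865 CPM (adjusted p = 3.91e-05). Mrgprb1, a receptor gene of the family through which mast cells sense peptides, rose from 12 and 21 reads to 114 and 96 (2.77 ± 0.48, adjusted p = 0.0066). Mrgprb2, the mast cell receptor for cationic peptides, had no read in saline and 14 and 26 in vanoxerine, at least 7.34-fold higher against a floor of 3 reads per library (adjusted p = 0.0217). It too passed the filter only through vanoxerine.

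Among regulators on that list, Mitf rose from 6.19 ± 1.01 to 17.1 ± 2.58 CPM (adjusted p = 0.0013) and Gata2 from 2.09 ± 0.228 to 3.90 ± 0.200 CPM (adjusted p = 0.0213). Both are transcription factors needed for mast cell development. Il1rl1, the receptor for interleukin 33, rose from 307 ± 10.4 to 370 ± 8.29 CPM, or 1.21-fold (adjusted p = 0.0062). Cnrip1, a gene often listed among mast cell transcripts, rose 2.44-fold (adjusted p = 0.0111). Cyp11a1, the enzyme that starts steroid synthesis, fell from 4.93 ± 1.77 to 1.49 ± 0.293 CPM (adjusted p = 0.0091). Rgs13, a signalling regulator of mast cells, had no read in any library.

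Both lists were drawn up with earlier results of these data known. Mcpt1 and Mrgprb2 passed the filter only through the vanoxerine libraries, where they are high, so the pooled count is a description. Over both lists 11 of 17 tested genes were called, 10 of them higher. Of all tested genes 36.9% were called and 21% were higher. Without vanoxerine replicate 1 the count was 3 of 17, and without vanoxerine replicate 2 it was 5 of 17. Calls across all genes also dropped then, from 6916 to 3235 and 3107. Il1rl1 was not called without vanoxerine replicate 1 or 2 (adjusted p = 0.0950 and 0.0551) or with upper-quartile factors (0.0597). Gata2 was not called without either (0.121 and 0.170) or with a length offset (0.0558), and Cnrip1 without either (0.111 and 0.0796). Without vanoxerine replicate 1, Mrgprb1 (0.0625), Mrgprb2 (0.163) and Cyp11a1 (0.0525) were not called. Mrgprb2 also lost its call with log2(TPM + 1), as did Cyp11a1 there and with log2(TPM + 0.1). Mitf, Hpgds and Ctsg kept their calls in every alternative tried.

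**Figure D3:**
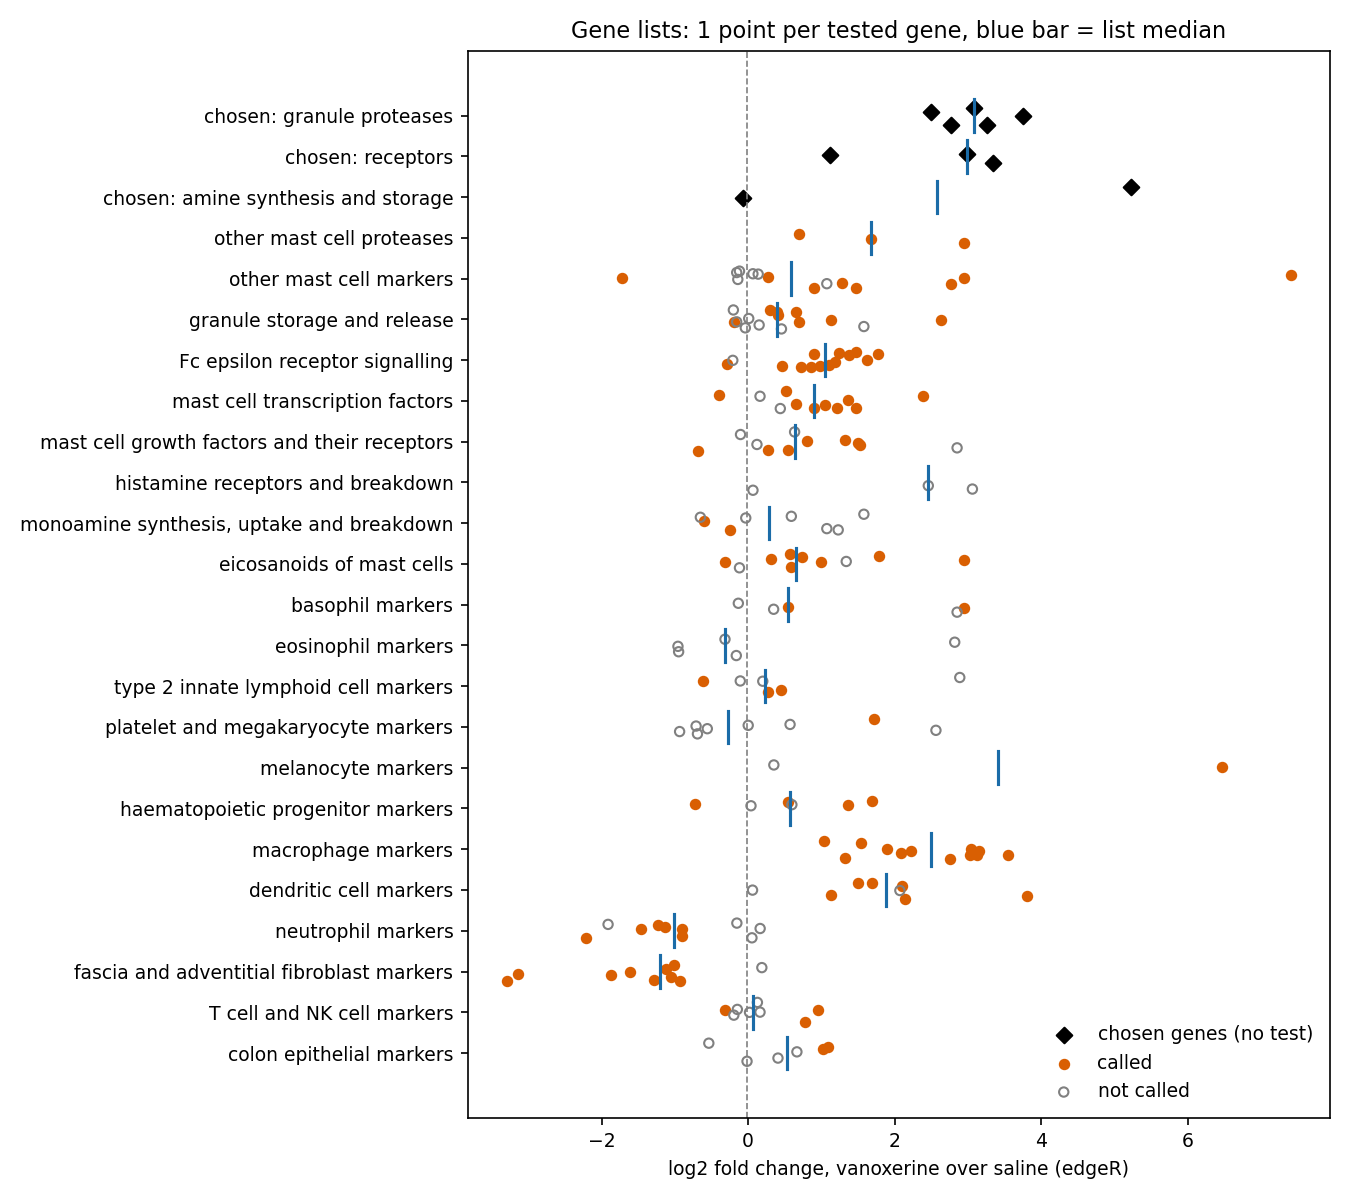
Log2 fold change (vanoxerine over saline, edgeR) of each tested gene by list, with 1 point per gene and a blue bar at the list's median. Black diamonds are the 10 chosen genes, which carry no test. Filled orange points were called, open grey points were not, and the dashed line is the median of all tested genes. The macrophage points all lie right of it, and all but 1 of the fibroblast points lie left.

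Genes for storing and releasing granule contents gave a mixed picture: of 15 tested, 7 rose, 1 fell and 7 were not called (median 0.39). Ctsc, the dipeptidase that activates granule proteases in several immune cells, rose 6.19-fold from 184 ± 8.59 to 1139 ± 12.8 CPM (adjusted p = 5.46e-06). Stxbp2, which steers vesicle fusion, rose 2.18-fold, Ndst2, a heparin-modifying enzyme, 1.58-fold, and Snap23, a fusion protein of mast cell exocytosis, 1.62-fold (adjusted p = 7.70e-05, 8.36e-04 and 8.61e-04). The Ndst2 call was lost with a length offset (adjusted p = 0.624) and on both TPM scales. The gene that fell was Cd63, a granule membrane protein (0.879-fold, adjusted p = 0.0376), named after its value was seen, as are the other single exceptions below. The Cd63 call was lost in 6 of 15 alternatives, among them without vanoxerine replicate 1 or 2 (0.221 and 0.318). With either of these libraries left out, 5 of the 15 genes were called.

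The pathway downstream of the IgE receptor had 12 genes higher, 1 lower and 1 not called of 14 (median 1.04). Fcer1g, the gamma chain of the receptor, rose 2.27-fold from 215 ± 3.95 to 490 ± 9.14 CPM (adjusted p = 2.51e-05). The kinases Syk and Lyn rose 3.07-fold and 2.60-fold (adjusted p = 1.36e-05 and 1.59e-05), and the phosphatase Inpp5d, a brake on this pathway, 2.77-fold (adjusted p = 2.18e-05). Plcg1, a phospholipase, fell to 0.823-fold (adjusted p = 0.0063), and that call was lost in 5 of 15 alternatives, among them without vanoxerine replicate 1 or 2 (0.114 and 0.162). Fcer1g, Syk, Lyn and Inpp5d are shared with macrophages and other myeloid cells. On the TPM scale the gamma chain stood at 1062 ± 25.0 in vanoxerine, far above the 3.54 of Fcer1a and the 0.341 of Ms4a2.

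Transcription factors listed for mast cells and their progenitors counted 8 higher, 1 lower and 2 not called of 11 (median 0.90). The listed genes are not particular to mast cells, and the part of macrophages and other myeloid cells in these counts was not tested. Cebpa rose 5.22-fold, Lmo2 2.57-fold, Zeb2 2.33-fold and Spi1 2.06-fold (adjusted p = 5.16e-05, 1.59e-04, 4.95e-05 and 1.13e-04). Cebpb fell (0.760-fold, adjusted p = 0.0061), and was not called without vanoxerine replicate 1 (0.0681). Gata1, which was not tested, had no read in saline and 9 and 11 in vanoxerine.

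For growth factors and their receptors the count was 6 higher, 1 lower and 4 not called of 11 (median 0.64). What macrophages and other myeloid cells contributed to it was not tested. Il4ra rose 2.87-fold, Csf2rb2 2.84-fold and Csf2rb, the shared chain of the interleukin 3 receptor, 2.51-fold (adjusted p = 1.32e-05, 3.69e-05 and 3.67e-05). Il33, an alarmin that acts on mast cells, fell from 29.4 ± 0.222 to 18.3 ± 1.67 CPM (adjusted p = 0.0023), a call lost on both TPM scales. Without vanoxerine replicate 1 the list had 4 calls. Kitl, which encodes stem cell factor, the ligand of Kit, measured 36.6 ± 3.67 and 39.8 ± 0.0039 CPM and was not called (log2 fold change 0.12 ± 0.083, adjusted p = 0.311).

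Lipid mediator genes of mast cells counted 7 higher, 1 lower and 2 not called of 10 (median 0.66). The part of macrophages and other myeloid cells in these counts was not tested. Besides Hpgds, the leukotriene genes Alox5ap and Alox5 rose 2.00-fold and 1.66-fold (adjusted p = 5.80e-05 and 0.0024), and the leukotriene receptor Cysltr1 rose 3.46-fold (adjusted p = 0.0032). Ptges, a prostaglandin E synthase, fell (0.801-fold, adjusted p = 0.0067) but had a positive log2 fold change of 0.13 with a length offset, and was not called without vanoxerine replicate 1 or 2 (0.0720 and 0.145). With either left out, 4 of the 10 genes were called.

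Amine handling beyond Hdc and Slc18a2 showed few calls. Of 3 tested histamine receptor and breakdown genes, edgeR called 0, with 1 at an unadjusted p under 0.05, while DESeq2 and limma-voom called 1 each. Of these, Hnmt, the histamine methyltransferase, had 8 and 57 reads in saline and 154 and 181 in vanoxerine (adjusted p = 0.0616). Of 8 tested genes for making, taking up and breaking down monoamines, 0 rose, 2 fell and 6 were not called. Maoa, a monoamine oxidase, fell from 36.9 ± 0.914 to 31.0 ± 1.58 CPM (adjusted p = 0.0357). Without vanoxerine replicate 1 or 2, Maoa was not called (0.176 and 0.375), and the call was also lost with a length offset and on both TPM scales. Tph1, which starts serotonin synthesis, had 12, 24, 26 and 44 reads and was not called.

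Cells related to mast cells or sharing their markers were read from 5 lists. Of 5 tested basophil markers, 2 rose and 0 fell. Cd200r3, a receptor of basophils and mast cells, went from 3 and 14 reads to 75 and 49 (adjusted p = 0.0365), a call lost without vanoxerine replicate 1 or 2 (0.252 and 0.119), and Il3ra rose 1.46-fold (adjusted p = 0.0054, and 0.0728 without vanoxerine replicate 1). Mcpt8, the defining basophil protease, measured 11.2 ± 2.16 and 14.2 ± 0.766 CPM and was not called (adjusted p = 0.127). Of 5 tested eosinophil markers edgeR called 0, with 0 at an unadjusted p under 0.05, DESeq2 0 and limma-voom 1. Of 8 tested platelet markers 1 rose, Pf4, which macrophages can also carry (3.29-fold, adjusted p = 1.42e-05). Of 6 tested markers of type 2 innate lymphoid cells, Icos and Il1rl1 rose and Areg fell, and Areg was not called without vanoxerine replicate 1 or 2 (0.0950 and 0.0530). Of 2 tested melanocyte markers, which share Kit and Mitf, 1 rose, Sox10, from no read to 11 and 10 reads (adjusted p = 0.0440), a call lost in 7 of 12 alternatives and made on a gene that passed the filter only through vanoxerine, while Tyrp1 had no read in any library.

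Sums in TPM also carry the difference in scale between the groups, so part of a rise can be the scale. Mcpt8 of the basophil list, 1.27-fold in CPM and not called, stood at 12.2 and 16.1 TPM in saline. Its vanoxerine values were 22.2 and 20.4 TPM. The summed level of the basophil list was 21.1 and 24.1 TPM in saline against 39.5 and 38.1 TPM in vanoxerine. For eosinophils it was 16.2 and 19.1 against 16.9 and 18.3 TPM, for platelets 92.1 and 83.5 against 319 and 307 TPM (12.2 and 9.46 against 14.3 and 14.4 TPM without Pf4), and for melanocytes 0.0919 and 0.692 against 0.461 and 1.03 TPM. Haematopoietic progenitor markers counted 3 higher, 1 lower and 2 not called of 6, with Ly6a, Myb and Flt3 higher and Meis1 lower (Meis1 was not called without vanoxerine replicate 1 or 2, at 0.0948 and 0.157). Their part in the levels of the 10 genes was not tested.

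Of 12 tested macrophage markers 12 rose (median 2.49). Their summed level was 844 and 859 TPM in saline against 5073 and 5028 TPM in vanoxerine. Dendritic cell markers counted 6 higher, 0 lower and 2 not called of 8 (median 1.88), with sums of 16.3 and 18.1 against 52.9 and 57.1 TPM. Fibroblast markers of fascia and adventitia, where connective tissue mast cells live, counted 0 higher, 9 lower and 1 not called of 10 (median -1.20), with sums of 93.5 and 87.0 against 46.1 and 48.6 TPM. Dpt, a matrix gene of fascia, fell from 7.02 ± 0.342 to 0.717 ± 0.0690 CPM (adjusted p = 1.53e-04). T cell and NK cell markers counted 2 higher (Klrb1c and Cd4), 1 lower (Cd8a) and 5 not called of 8, and only Klrb1c was called without vanoxerine replicate 1 or 2. The proteases therefore moved in the direction of the macrophage genes and opposite to the fascia genes, and the part of either in their levels was not tested.

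Candidates for nearest patterns were named protein-coding genes that reached a set minimum of mean log2 CPM. Patterns closest to Cpa3 were sought among 12151 such genes by the root mean square distance of log2 CPM, centred on the saline mean, over the 4 libraries. They were Selenop, Lrrc4, Tbxas1, Mrc1 and Gas6, at distances of 0.22 to 0.26, with folds of 11.5 to 12.8 against 13.6 for Cpa3. Mrc1 is a macrophage receptor gene and Tbxas1 encodes thromboxane synthase. For Slc18a2 the nearest of 12152 genes were Fcrls, Gbp2b, Nxpe5, Slc13a3 and Slco2b1, at larger distances of 0.60 to 1.16. Slc18a2 itself, with 0 and 2 saline reads, lies below the minimum level, so no gene as low could be matched to it. With 4 libraries in 2 groups, such a distance mostly ranks genes by the size of their fold.

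Genes around the proteases were compared with them. Within 300 kb of the Cma1 start, 31 other genes were tested, of which 13 rose, 1 fell and 17 were not called. The risers included Mcpt1, Mcpt2 and Ctsg, already described, and 5 granzyme genes, Gzme, Gzmd, Gzmg, Gzmf and Gzmc, with log2 fold changes of 0.51 to 0.81. Granzymes are the granule proteases of cytotoxic lymphocytes. Gzmf rose from 1073 ± 79.2 to 1782 ± 19.0 CPM (adjusted p = 2.70e-04), and Gzmc from 1159 ± 86.7 to 1648 ± 29.8 CPM (adjusted p = 0.0012). The other risers, on the far side of Cma1, were Tinf2, Tgm1, Dhrs1, Ltb4r1 and Ripk3, and Nedd8 fell. Mcpt8, between Mcpt4 and Ctsg, was not called. Of these 14 calls, 8 remained without vanoxerine replicate 1 or 2 and 9 with a length offset. The 5 granzymes and Ctsg kept theirs in these 3 settings. Granzyme genes form a family, and how reads shared among them were divided was not tested.

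Within 300 kb of the Tpsb2 start, 13 other genes were tested, of which 1 rose (Clcn7, log2 fold change 0.43 ± 0.049), 3 fell (Telo2 and Tsr3 among them) and 9 were not called. Only Clcn7 remained called without vanoxerine replicate 1 or 2 or with a length offset. The log2 fold changes of the called genes there lay between -0.37 and 0.43, beside 3.27 for Tpsb2 and 2.50 for Tpsab1. Tpsg1, the transmembrane tryptase gene of this locus, had 0, 6, 25 and 9 reads and did not pass the low-count filter.

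**Figure D4:**
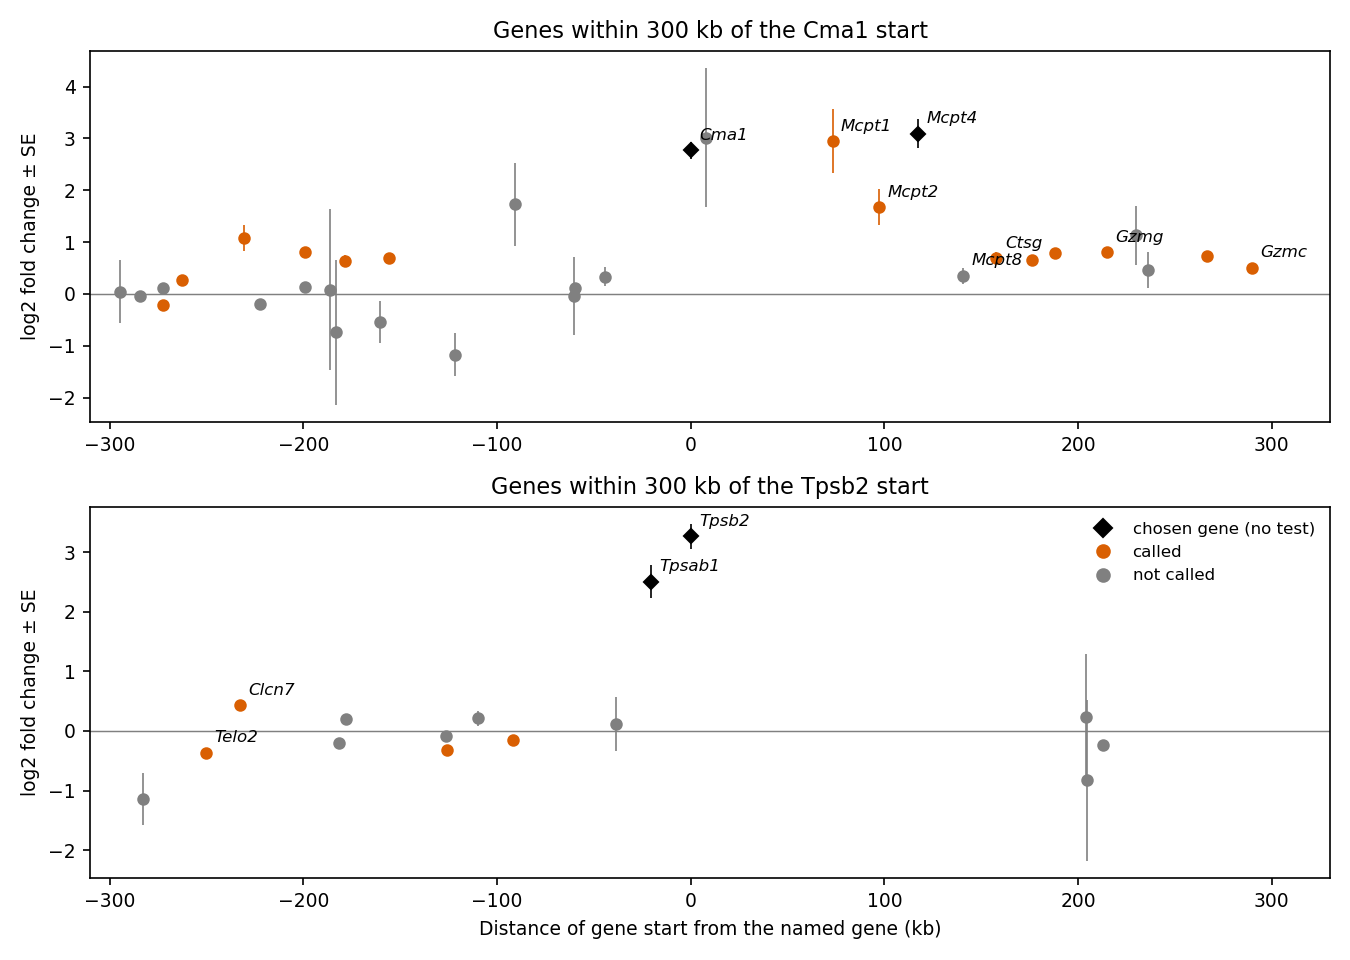
Log2 fold change with its SE (vanoxerine over saline) of tested genes against the distance of their start from the start of Cma1 (top) and Tpsb2 (bottom), in kb. Diamonds are the chosen genes, orange points were called and grey points were not. Tpsb2 and Tpsab1 stand above every neighbour in their panel. In the Cma1 panel the granzymes are also above 0, and Mcpt1 (2.94) lies above Cma1 (2.77). So does the pseudogene Mcpt-ps1 (3.02 ± 1.35 SE), which had 0, 6, 23 and 24 reads and was not called.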

How the data were processed

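RNA-seq libraries of MC38 tumours, 4 in all (2 saline, 2 vanoxerine), were analysed. The submitters' processing notes name fastp, Salmon 1.3.0, DESeq2 and the build GRCm38. No setting or strand of counting was found there, so reads of a gene and an overlapping or antisense partner may be mixed. Salmon's estimated counts and TPM for 140992 transcripts were deposited by the authors, per the file headers. The authors' deposited table of the comparison also gives per gene a base mean (a signal), a log2 fold change, its SE and a p-value. Its 4 per-library FPKM columns match no sample by name and were not used.

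Estimated counts were summed per gene through GENCODE M21 (139791 transcripts matched, at least 99.56% of reads), rounded, and tested with edgeR 4.0.16 in R 4.3.3: TMM factors, the default filter (minimum count 10, minimum total 15), a quasi-likelihood test of vanoxerine over saline with no block, and Benjamini-Hochberg adjustment over 18758 genes. The SE comes from the test's F statistic. Counting intervals are exact, at 95%. Replicates differed by more than sampling noise (mean chi-square per gene 58.3 in saline and 17.3 in vanoxerine) and were counted separately.

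The 10 genes and the 21 other lists were chosen with earlier results of these data known. Named genes are the 10, up to 4 called genes with the smallest p per list, all called genes or genes without a read of the other mast cell protease and marker lists, genes called at the protease loci, and the 5 nearest patterns. Others were named after their values were seen. Alternatives were other scalings, filters and tests, a length offset, TPM scales, a replicate block and leaving out each library, where the spread then comes from the other group alone. Some genes are not reported here by name.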

Additional observations from a re-analysis of the deposited data

How the results depend on the processing

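Depth limits Ms4a2 and Slc18a2, which rest on at most 46 reads per library. The number of genes called was 6916. It was 4309 with an average transcript length offset, 6391 with the replicate number as a block, and between 3107 and 9708 with 1 library left out, the lowest without vanoxerine replicate 2. Over all lists 100 of 163 tested genes were called (81 with the length offset, 99 with the replicate block, 69 to 119 with 1 library left out). The counts of single lists stayed within 1.5 times in 273 of 336 list and setting pairs. The median log2 fold change of the 10 genes was 3.04. It was 1.55 as log2(TPM + 1), where the added 1 exceeds the level of the lowest genes, 3.07 with the replicate block, and 2.71 to 3.08 with 1 library left out. Of the 10 genes, 9 had a positive log2 fold change in every alternative run. Hdc, at -0.063, turned to 0.23 as log2(TPM + 1), 0.23 as log2(TPM + 0.1) and ranged from -0.15 to 0.037 with 1 library left out (highest without saline replicate 2), and the cause was not tested. Ms4a2 (3.34) ranged from 0.40 as log2(TPM + 1) to 7.96 without saline replicate 2, and Slc18a2 (5.23) from 0.22 to 8.36 in the same settings, where the highest values are fitted against saline with no read and are no bound. Kit ranged from 0.98 with upper-quartile factors to 1.65 as log2(TPM + 0.1). The replicate numbers did not pair the libraries: deviations of same-numbered libraries correlated at -0.0058 over 9871 genes. With a mean CPM of at least 1, Ms4a2 and Slc18a2 were not tested.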
